A study of Mus musculus with 29 samples.

Results

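Among 10 tumour-bearing mice that received the same vector, the hearts differed widely in Cdkn1a, the gene of the cell cycle inhibitor p21. The 5 hearts with the highest Cdkn1a level were set against the 5 with the lowest, and all other expressed genes were compared between them. The hearts were selected on Cdkn1a CPM (the gene's count scaled to the library's total count), 10 of the 29 hearts of the study. Every difference between these 5 and 5 hearts is therefore a description with no p-value. Tests are given only for hearts that the ranking did not use.

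All mice were wild-type BALB/c. An adeno-associated virus (AAV) whose Tbg promoter drives expression in hepatocytes, and not in heart cells, carried either GFP or REV-ERBα, a nuclear receptor of the circadian clock. The vector was given intravenously 10 days before C26 colon tumour cells were placed under the skin, and mice without a tumour received PBS. C26_GFP and C26_REVERBa held 10 hearts each, PBS_REVERBa 5 and PBS_GFP 4, and each library came from a separately numbered animal. Sources used here do not give the mice's sex or age, nor the hour at which hearts were taken.

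Cdkn1a blocks cyclin-dependent kinases and so holds cells out of division. It is known as a target of p53, and it also responds to glucocorticoids, to FOXO factors and to other stress signals. In heart muscle, whose adult cells seldom divide, it is often read as a stress gene. C26 tumours release inflammatory cytokines, among them interleukin-6, and cause cachexia, the wasting of muscle and fat.

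Cdkn1a (NM_001111099, mm10 chromosome 17, 29090986 to 29100722, plus strand) had 431.5, 339.3, 196.0, 136.2 and 129.4 CPM of the column total in C26_GFP replicates 7, 10, 2, 5 and 1, the high-Cdkn1a hearts. It had 125.8, 92.8, 87.4, 36.9 and 31.0 CPM in C26_GFP replicates 8, 4, 3, 6 and 9, the low-Cdkn1a hearts. The means were 246.5 ± 133.5 CPM (SD, n = 5) and 74.8 ± 40.1 CPM (SD, n = 5). The levels form a continuous series, and the hearts on either side of the dividing line, at 129.4 and 125.8 CPM, were nearly equal. PBS_GFP hearts had 14.99 to 34.83 CPM, so the lowest C26_GFP heart, at 31.0 CPM, lay within the range of hearts without a tumour and the other 9 above it.

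**Figure D1:**
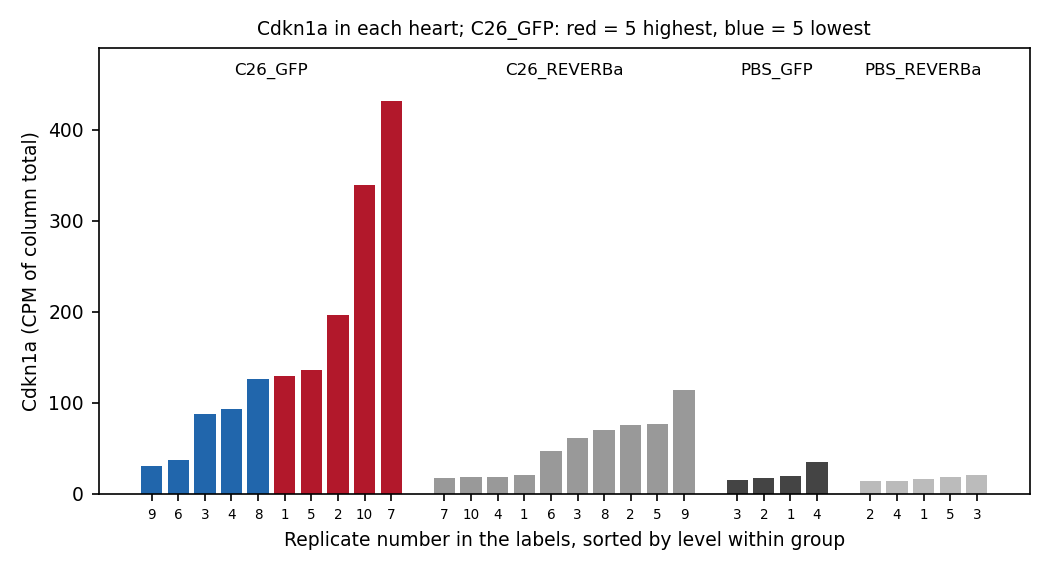
Cdkn1a level of each heart, in CPM of the column total, by group and sorted within each group; each bar is 1 heart and its replicate number is below it. The 5 highest C26_GFP hearts (red) run from 129.4 to 431.5 CPM and the 5 lowest (blue) from 31.0 to 125.8 CPM.

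The high-Cdkn1a libraries held 5684452 to 12676896 counts and the low-Cdkn1a libraries 6001968 to 16853646, with 1 and 2 libraries above 10000000. Traces of atrium, read from the atrial myosin light chain gene Myl7 above 5 CPM, were present in 1 high-Cdkn1a heart (replicate 5) and 2 low-Cdkn1a hearts (replicates 3 and 9). Summed over 9 atrial markers, the levels ran from 204 to 2023 CPM in high-Cdkn1a hearts and from 153 to 4798 CPM in low-Cdkn1a hearts. The 12 cardiomyocyte markers together reached 35820 to 43170 CPM in high-Cdkn1a hearts and 40460 to 48670 CPM in low-Cdkn1a hearts, so all 10 libraries carried the defining genes of heart muscle. Among the 16 lists of cell type markers, the macrophage and endothelial lists had 0 of 15 and 0 of 10 genes without overlap. The neutrophil and adipocyte lists had 0 of 1 and 0 of 2, and no lymphocyte marker had enough counts to be described. Erythroid markers, with 1 described, summed to 22.5 to 104 CPM in high-Cdkn1a and 7.04 to 38.1 CPM in low-Cdkn1a hearts. Platelet markers, with 3 described, summed to 16.8 to 23.1 and 15.3 to 68.1 CPM. The fibroblast list had 1 of 10 without overlap, Tcf21, with a median log2 difference of -0.04 and summed levels of 2422 to 3161 and 2777 to 3227 CPM. The smooth muscle and pericyte list had 1 of 9, Notch3, with a median of -0.19 and sums of 1106 to 1585 and 1396 to 1764 CPM. Both genes were lower in high-Cdkn1a hearts. Beside the 2.42% of all genes without overlap given below, counts of 0 or 1 gene are no result about any of these lists. In whole hearts, fewer cells of a type and less RNA per cell cannot be told apart, and the part of cell makeup in the differences below was not tested.

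The difference between the high-Cdkn1a and low-Cdkn1a hearts was broad and mostly small. Of 11790 genes described, 285 (2.42%) did not overlap, meaning that every heart of one set lay above every heart of the other. The high-Cdkn1a hearts were higher for 140 of them (1.19%) and lower for 145 (1.23%). Of the non-overlapping genes, 84.2% differed by less than 0.5 on the log2 scale, and 4 of the higher and 3 of the lower ones differed by more than 2-fold. The median log2 difference was 0.29 for the higher genes and -0.33 for the lower ones, against 0.00 (-0.0014) for all genes described. These levels and differences use CPM scaled by TMM factors, which correct the library totals for differences in composition, and log2 differences come with a standard error from edgeR's quasi-likelihood fit.

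Lcn2, an iron-binding protein of the acute phase response (NM_008491, chromosome 2, 32384637 to 32387739, minus strand), differed most among the named genes. In the order of falling Cdkn1a it had 33.8, 29.8, 14.9, 13.8 and 32.9 CPM in the high-Cdkn1a hearts and 13.1, 12.7, 4.89, 4.65 and 4.67 CPM in the low-Cdkn1a hearts. PBS_GFP hearts had 0.761, 0.189, 0.573 and 2.03 CPM. The log2 difference between the sets was 1.62 ± 0.36 (SE), 3.08-fold, and all 10 tumour-bearing hearts lay above all 4 PBS_GFP hearts. The lowest high-Cdkn1a heart, at 13.8 CPM, and the highest low-Cdkn1a heart, at 13.1 CPM, were close.

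Metallothioneins, small metal-binding proteins that respond to glucocorticoids and zinc, showed a similar order. Mt2 (NM_008630, chromosome 8, 94172618 to 94173567, plus strand) had 68.9, 72.5, 56.2, 41.2 and 53.4 CPM in high-Cdkn1a hearts and 37.7, 32.1, 26.3, 13.7 and 23.2 CPM in low-Cdkn1a hearts. The sets did not overlap, and PBS_GFP hearts stayed between 1.15 and 3.48 CPM. The log2 difference was 1.14 ± 0.23. Its neighbour Mt1 had 103 to 178 CPM in high-Cdkn1a and 43.0 to 107 CPM in low-Cdkn1a hearts, which overlap slightly, with a log2 difference of 0.87 ± 0.21.

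Sema5a, a membrane-bound semaphorin known from axon guidance (NM_009154, chromosome 15, 32244813 to 32696341, plus strand), followed the Cdkn1a order heart by heart. It had 99.7, 94.7, 72.0, 51.4 and 43.2 CPM in high-Cdkn1a hearts and 38.2, 37.7, 22.2, 20.2 and 16.9 CPM in low-Cdkn1a hearts. PBS_GFP hearts had 13.4, 15.7, 15.8 and 14.2 CPM, so each tumour-bearing heart lay above them. Its Spearman rho with Cdkn1a over the 10 hearts was 1.0, given as a description because the hearts were ranked on Cdkn1a. The log2 difference was 1.41 ± 0.27.

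By the same measure, the genes next to Sema5a were Gcnt1, a glycan-branching enzyme, Rnf114, a ubiquitin ligase, the kinase gene Mast2 and Hnrnpu, a nuclear RNA-binding protein, each at a rho of 0.988. Gcnt1 had 145, 133, 120, 119 and 86.4 CPM in high-Cdkn1a hearts and 94.3, 80.7, 73.7, 70.1 and 62.5 CPM in low-Cdkn1a hearts, so 1 heart of each set crossed. The genes that ran most strictly against Cdkn1a were Entpd5, Cisd2 and Sspn (rho -0.988 each), and Aplnr and Lrrc4b (-0.976 each). Sspn encodes sarcospan of the dystrophin complex, and Cisd2 a protein of the mitochondrial and endoplasmic reticulum membrane. These 10 genes were picked from 11790 for this likeness over 10 hearts.

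The other large differences upward were modest in size. Rnf39, a RING finger gene, had 7.17 to 14.0 CPM in high-Cdkn1a and 3.83 to 6.78 CPM in low-Cdkn1a hearts, a log2 difference of 1.01 ± 0.23. Phyhd1, a dioxygenase gene, had 149 to 223 and 87.8 to 131 CPM, a log2 difference of 0.75 ± 0.15. Cebpb, a transcription factor of inflammation and metabolism, had 270 to 452 and 135 to 269 CPM, so its nearest hearts almost touched. Igfbp3, which binds insulin-like growth factors, had 89.2 to 161 and 65.8 to 81.8 CPM, and Uck2, a pyrimidine salvage kinase, 47.2 to 90.7 and 31.4 to 45.7 CPM. Tlr4, the receptor for bacterial lipopolysaccharide, had 41.9 to 66.7 and 23.2 to 40.4 CPM, and Hspb1, a small heat shock protein, 280 to 470 and 180 to 269 CPM. For Tlr4 and Hspb1 the high-Cdkn1a hearts overlapped the PBS_GFP hearts, which had 35.0 to 47.3 and 288 to 371 CPM, and the low-Cdkn1a hearts of Hspb1 all lay below them.

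Promoter sequences are shown for Lcn2 and Phyhd1. These were the largest upward differences that held one of the motifs searched in a promoter and passed both tests described further on. Those tests share the 10 C26_REVERBa hearts and are not independent of each other. The windows run from 180 to 61 bases before a RefSeq transcription start (GRCm38.p6, the mm10 build). Capitals mark ACANNNTGT, the core of a glucocorticoid receptor element, or TTCNNNGAA, the STAT element. The Lcn2 window is chr2:32387800-32387919 on the minus strand and the Phyhd1 window chr2:30266023-30266142 on the plus strand. Phyhd1 has further RefSeq starts, and their promoters, chr2:30266471-30266770 and chr2:30266569-30266868, held neither motif.
Lcn2: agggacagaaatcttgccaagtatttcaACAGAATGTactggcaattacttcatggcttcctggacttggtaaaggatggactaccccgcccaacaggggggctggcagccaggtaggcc
Phyhd1: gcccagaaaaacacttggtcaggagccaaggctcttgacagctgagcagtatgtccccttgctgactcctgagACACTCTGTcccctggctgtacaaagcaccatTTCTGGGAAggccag
Both motifs were searched on both strands of the 300 bases around each start. ACANNNTGT was found in 2 of 11 promoters of the 10 largest upward differences (9 genes with a promoter in the table), in 2 of 12 of the 10 largest downward ones and in 6.85% of all 32851 promoters. TTCNNNGAA was found in 1 of 11, in 0 of 12 and in 8.3%. A match is a description of letters and not of a bound site.

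Downward, Mylk4, a kinase gene of the myosin light chain kinase family, differed most. It had 252, 142, 194, 273 and 195 CPM in high-Cdkn1a hearts and 367, 362, 467, 485 and 648 CPM in low-Cdkn1a hearts. PBS_GFP hearts had 712 to 843 CPM, above every tumour-bearing heart. The log2 difference was -1.14 ± 0.19 (NM_001166030, chromosome 13, 32700827 to 32781779, minus strand).

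Lrrc15, a leucine-rich repeat membrane protein, gave the same order of PBS_GFP, low-Cdkn1a and high-Cdkn1a hearts. It had 26.6, 40.7, 34.8, 53.1 and 65.5 CPM in high-Cdkn1a hearts, 77.4, 99.5, 75.4, 114 and 105 CPM in low-Cdkn1a hearts and 131 to 161 CPM in PBS_GFP hearts. No heart of these 3 sets overlapped another set, and the log2 difference between the tumour-bearing sets was -1.09 ± 0.20. Mdga1, a membrane-anchored adhesion protein, had 3.64 to 6.91 and 7.39 to 18.5 CPM (-1.07 ± 0.28), and Lingo3, a leucine-rich repeat protein, 6.46 to 11.5 and 11.96 to 22.4 CPM (-0.93 ± 0.20). Trim7, a ubiquitin ligase that binds glycogenin, had 16.9 to 31.6 and 37.2 to 50.9 CPM against 78.4 to 100.3 CPM in PBS_GFP.

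The other named downward differences were Ndc1 of the nuclear pore, the splicing factor Srrm4, Rimkla, which makes N-acetylaspartylglutamate, and the interferon genes Irf7 and Oasl2. Their log2 differences lay between -0.74 and -0.71. Irf7 had 6.37 to 10.5 CPM in high-Cdkn1a and 11.5 to 18.6 CPM in low-Cdkn1a hearts, against 9.004 to 11.5 CPM in PBS_GFP. Oasl2 had 8.77 to 14.2 and 14.4 to 21.7 CPM against 13.8 to 26.4 CPM in PBS_GFP. Both sets of tumour-bearing hearts overlapped PBS_GFP for Oasl2, and for Irf7 the lowest low-Cdkn1a heart was level with the highest PBS_GFP heart.

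The apelin and angiogenesis list had 1 of 20 genes without overlap, lower in high-Cdkn1a hearts and near the 2.42% of all genes. It was Nrp1, a co-receptor for VEGF, with 322 to 370 CPM in high-Cdkn1a and 378 to 425 CPM in low-Cdkn1a hearts (-0.21 ± 0.06). The list's median was -0.05. Aplnr, the apelin receptor of heart vessels (NM_011784, chromosome 2, 85136360 to 85139923, plus strand), had 9.28, 11.3, 15.8, 25.5 and 25.8 CPM in high-Cdkn1a hearts and 25.7, 35.3, 27.3, 49.3 and 51.5 CPM in low-Cdkn1a hearts. The sets met at a single pair of hearts, C26_GFP replicate 1 at 25.8 CPM and replicate 8 at 25.7 CPM, so Aplnr is not among the 285. PBS_GFP hearts had 114 to 150 CPM, above every tumour-bearing heart, and the log2 difference between the sets was -1.08 ± 0.28. Its ligand gene Apln had too few counts to be described by the filter, with 0.251 to 2.57 CPM in high-Cdkn1a, 3.36 to 11.4 CPM in low-Cdkn1a and a mean of 39.5 CPM in PBS_GFP hearts. Apln was singled out after its values were seen.

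**Figure D2:**
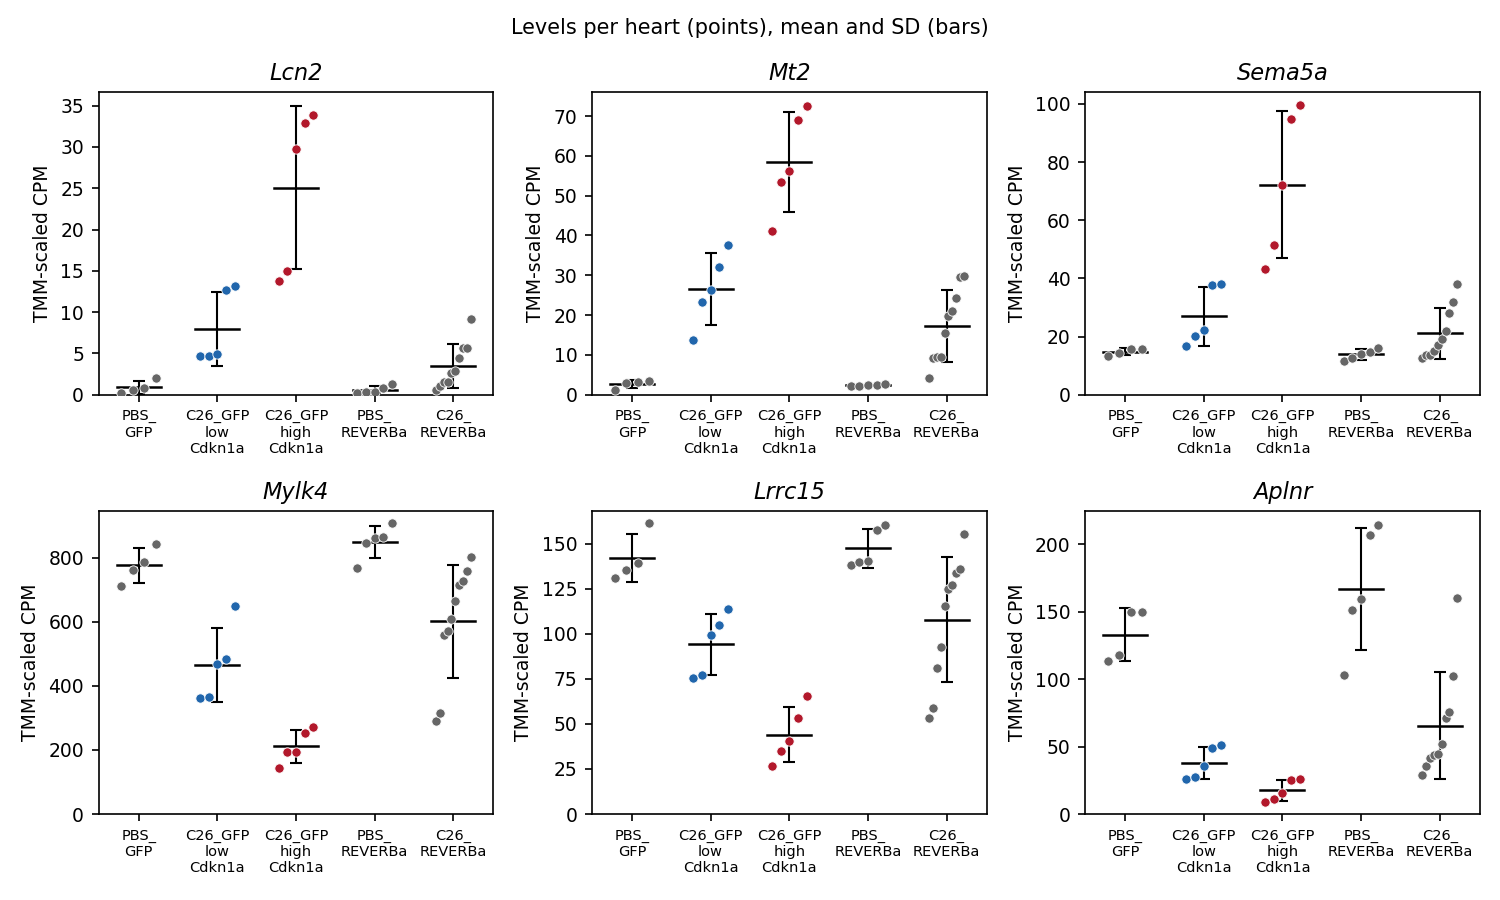
TMM-scaled CPM of 6 genes by group, with the C26_GFP hearts split by Cdkn1a; points are hearts, and bars give the mean and SD. High-Cdkn1a hearts (red) lay above low-Cdkn1a hearts (blue) for Lcn2, Mt2 and Sema5a and below them for Mylk4 and Lrrc15, and the sets met at 1 pair of hearts for Aplnr.

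Cdkn1a is best known as a p53 target. Of 24 other p53 targets described, 0 separated the sets, which is near the 2.42% of all genes and no result about the list. Their median log2 difference was -0.03, with 10 of 24 above 0. Mdm2, the feedback inhibitor of p53, had 75.2 to 90.4 CPM in high-Cdkn1a and 82.8 to 99.9 CPM in low-Cdkn1a hearts. Ccng1, a cyclin gene, had 876 to 1130 and 969 to 1487 CPM. Sesn1, a sestrin, and Trp53inp1, which acts in autophagy, had log2 differences of 0.44 ± 0.12 and 0.55 ± 0.19, with overlapping sets. Plk2 and Phlda3 had -0.45 ± 0.14 and -0.32 ± 0.12.

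Of 18 growth arrest genes described, 0 separated the sets, again near the 2.42% of all genes, and their median was 0.05. The sister inhibitors of Cdkn1a overlapped between the sets. Cdkn1b (p27) had 121 to 150 CPM in high-Cdkn1a and 105 to 137 CPM in low-Cdkn1a hearts, and Cdkn1c (p57) 29.9 to 40.7 and 39.2 to 52.1 CPM. Of 20 cell cycle and mitosis genes, 4 had enough counts to be described, and none separated the sets.

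Glucocorticoid receptor targets had the highest median of the 24 pathway lists, 0.46 over 22 genes, with 20 of 22 above 0. Of these, 2 did not overlap, Lcn2 and Mt2, which is 2 of 22 against 1.19% of all genes, read from the same contrast that chose the hearts. The targets that overlapped included Fkbp5, a co-chaperone of the receptor, with 156 to 396 CPM in high-Cdkn1a and 72.1 to 194 CPM in low-Cdkn1a hearts (1.06 ± 0.29). Ddit4, an inhibitor of mTOR signalling, had a log2 difference of 1.06 ± 0.34, Hif3a, a hypoxia-inducible factor subunit, 1.235 ± 0.35 and Tsc22d3, known as GILZ, 0.60 ± 0.16. The fuel-switch kinase Pdk4 ranged from 655 to 6247 and from 407 to 5303 CPM, so its spread within each set exceeded the difference between them.

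Acute phase and STAT3 target genes had a median log2 difference of 0.30 over 21 genes, with 18 above 0. Without overlap were 2 of 21, Lcn2 and Cebpb, against 1.19% of all genes. Serpina3n, a secreted protease inhibitor, had 393 to 788 CPM in high-Cdkn1a and 216 to 539 CPM in low-Cdkn1a hearts, against a mean of 12.5 CPM in PBS_GFP. Lrg1, a secreted glycoprotein, had 408 to 651 and 164 to 421 CPM. The upstream genes differed less, with log2 differences of 0.30 ± 0.12 for the receptor Osmr, 0.24 ± 0.19 for the feedback inhibitor Socs3 and 0.14 ± 0.07 for Stat3. Against PBS_GFP, the list's median was 1.03 in low-Cdkn1a and 1.05 in high-Cdkn1a hearts. These medians run over 23 genes and share the 4 PBS_GFP hearts, and they do not give the difference between the sets, which is the 0.30 above.

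Of 20 interferon response genes described, 18 had lower levels in high-Cdkn1a hearts, with a median log2 difference of -0.40, the lowest of the 24 lists. Without overlap were 2 of 20, Irf7 and Oasl2, against 1.23% of all genes. Ifit1 had 5.27 to 8.85 CPM in high-Cdkn1a and 8.10 to 14.8 CPM in low-Cdkn1a hearts, and Ifit3 4.40 to 8.34 and 7.86 to 10.95 CPM. Against PBS_GFP the list's median was 0.22 in low-Cdkn1a and -0.19 in high-Cdkn1a hearts. Rsad2, the antiviral gene viperin, went the other way with 0.44 ± 0.25. Most of these genes are low in the heart, and the whole list summed to 408 to 506 CPM and 432 to 633 CPM.

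Autophagy and lysosome genes had 3 of 27 higher without overlap, against 1.19% of all genes, read from the contrast that chose the hearts. Sqstm1, the cargo receptor p62, had 994 to 1436 CPM in high-Cdkn1a and 693 to 972 CPM in low-Cdkn1a hearts, a log2 difference of 0.48 ± 0.13. Map1lc3b, the autophagosome protein LC3B, had 425 to 526 and 268 to 414 CPM (0.38 ± 0.11), and Atg12, a ubiquitin-like conjugate of the same machinery, 66.5 to 74.9 and 62.4 to 64.2 CPM (0.17 ± 0.05). The mitophagy receptor Bnip3 overlapped, with 235 to 525 and 142 to 269 CPM (0.92 ± 0.21). Ubiquitin ligase and FOXO atrophy genes had a median of 0.13 over 21 genes, with 18 above 0. Without overlap were 1 higher gene, Map1lc3b, and 1 lower gene, Mul1, against 1.19% and 1.23% of all genes. A single gene each way is no result about the list. Trim63 (MuRF1) and Fbxo32 (atrogin-1) overlapped, with 0.34 ± 0.15 and 0.20 ± 0.15. The mitochondrial ligase Mul1 had 124 to 134 CPM in high-Cdkn1a and 144 to 152 CPM in low-Cdkn1a hearts.

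For the contractile and electrical machinery, counts of genes without overlap were near the 2.42% of all genes. They were 0 of 24 for calcium handling and ion channel genes, of which 19 lay below 0 (median -0.18), among them Casq2, which stores calcium, with -0.33 ± 0.11, and the pacemaker channel Hcn2 with -0.50 ± 0.15. They were 0 of 19 for sarcomere, 0 of 48 for oxidative phosphorylation and 0 of 40 for cytosolic ribosomal protein genes, with medians of 0.04, -0.02 and 0.03. The tricarboxylic acid cycle list had 1 of 21, Dlat of pyruvate dehydrogenase, with 377 to 436 against 438 to 553 CPM. The cardiac stress genes had a median of 0.34 over 15 genes and 0 without overlap. Within them Nppb had 120 to 385 and 62.8 to 250.4 CPM, and Nppa, which is also an atrial marker, 82.1 to 1343 and 48.9 to 3372 CPM.

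**Figure D3:**
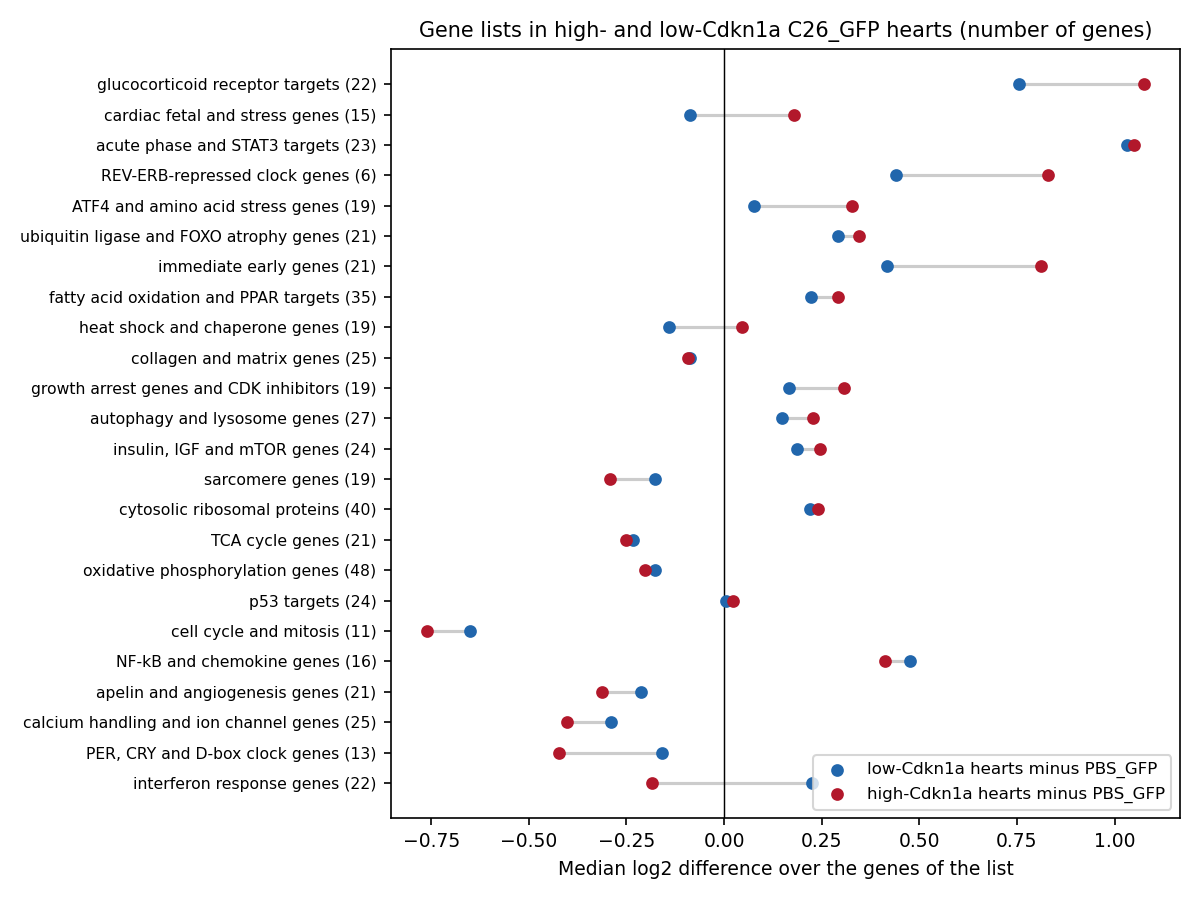
Median log2 difference from PBS_GFP hearts for the genes of 24 pathway lists, in low-Cdkn1a (blue) and high-Cdkn1a (red) C26_GFP hearts; the number of genes is in brackets, and both points of a line share the 4 PBS_GFP hearts. The glucocorticoid list stands at 0.75 and 1.08, the acute phase list at 1.03 and 1.05, and the interferon list at 0.22 and -0.19.

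Hearts that the ranking did not use were then tested. The first test compared tumour-bearing with tumour-free hearts of mice given REV-ERBα, C26_REVERBa (n = 10) against PBS_REVERBa (n = 5). Of 12516 genes tested with edgeR's quasi-likelihood test, 763 (6.1%) passed an adjusted p under 0.05 (Benjamini-Hochberg over all genes tested), 439 higher (3.51%) and 324 lower (2.59%). Cdkn1a had 13.7 to 20.3 CPM of the column total in PBS_REVERBa and 17.8 to 114.5 CPM in C26_REVERBa hearts, and rose by 1.63 ± 0.45 on the log2 scale (edgeR adjusted p = 0.0398). The count of 763 became 323, 342, 455 or 483 without PBS_REVERBa replicate 5, 2, 4 or 1, and 508 without C26_REVERBa replicate 5.

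Of the 140 genes higher in high-Cdkn1a hearts, 12 rose with the tumour in REV-ERBα mice (8.57%) and 0 fell, against 3.51% and 2.59% of all genes. Of the 145 lower ones, 17 fell (11.7%) and 2 rose (1.38%). Without the libraries with Myl7 above 5 CPM (4 of C26_REVERBa and 1 of PBS_REVERBa), 9 of the 140 rose and 8 of the 145 fell. That setting called fewer genes of the whole table, 311 higher and 226 lower, so the shares of all genes above do not apply to it. Mt2 rose by 2.81 ± 0.47 (edgeR adjusted p = 0.00269), Lcn2 by 2.39 ± 0.70 (edgeR adjusted p = 0.0491) and Phyhd1 by 0.80 ± 0.15 (edgeR adjusted p = 0.00408). Map1lc3b rose by 0.36 ± 0.08 (edgeR adjusted p = 0.0171). Mdga1 and Aplnr changed by -0.95 ± 0.26 and -1.34 ± 0.31 (edgeR adjusted p = 0.0398 and 0.0156). Sema5a, Mylk4 and Lrrc15 did not pass, with log2 changes of 0.60, -0.50 and -0.45 (edgeR adjusted p = 0.172, 0.118 and 0.182).

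Several large differences between the high-Cdkn1a and low-Cdkn1a hearts had small values here. Rnf39 had a log2 change of 0.18, Cebpb 0.23 and Igfbp3 0.04 (edgeR adjusted p = 0.602, 0.571 and 0.879). Irf7 and Oasl2 had 0.16 each, on the other side of 0 from their difference in C26_GFP hearts (edgeR adjusted p = 0.607 and 0.627). By list, against 3.51% of all genes, 12 of 22 acute phase genes and 9 of 22 glucocorticoid targets rose and 0 of either fell, and 2 of 24 p53 targets rose, Trp53inp1 and Fas. Of 27 autophagy genes 5 rose against the same share, Bnip3, Ctsl, Gabarap, Gabarapl1 and Map1lc3b. Macrophage markers also rose in these hearts, 6 of 15, with summed levels of 519 to 713 CPM in C26_REVERBa and 392 to 547 CPM in PBS_REVERBa, and their part in these counts was not tested.

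The second test asked whether a gene's level followed Cdkn1a among the 10 C26_REVERBa hearts, as the slope of log2 expression per doubling of Cdkn1a. Those hearts fell into separate clusters: 4 had 17.8 to 20.7 CPM of Cdkn1a, like PBS_REVERBa hearts, and 6 had 46.7 to 114.5 CPM. Of 12507 genes tested, 500 (4%) had a slope at an edgeR adjusted p under 0.05, 249 positive (1.99%) and 251 negative (2.01%). Of the 140 genes higher in high-Cdkn1a C26_GFP hearts, 20 had a positive slope (14.3%) and 0 a negative one. Of the 145 lower genes, 22 had a negative slope (15.2%) and 0 a positive one. Without regard to the test, the slope had the same sign as the C26_GFP difference for 116 of 140 and 127 of 145 genes, where 5932 of all 11785 genes had a positive slope.

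The slope calls depended on which C26_REVERBa hearts were included. Without the 2 hearts farthest from the median Cdkn1a level (replicates 7 and 10), 24 genes of the whole table passed. Of these, 12 slopes were positive and 12 negative, and 0 were of the 140 or 145. With the 6 hearts of the upper cluster alone, 86 passed, all with a positive slope, and again 0 of the 140 or 145. No gene passed with a negative slope there, so the 0 of 145 was fixed. With so few calls in the whole table, a 0 is near the share of all genes and no result about the 140 or 145. Without replicate 7, 4 or 1 of C26_REVERBa, 168, 209 and 210 genes passed, and without replicate 2, 308. Adipocyte markers moved with it: 4 of 6 tested (Cidec, Adipoq, Lipe and Cfd) had a positive slope, and the 9 markers summed to 185 to 714 CPM in the 6 hearts and to 122 to 166 CPM in the 4. With log2 Adipoq as a covariate, 25 of the 140 had a positive slope and 13 of the 145 a negative one. With log2 Myl7 as a covariate, these counts were 22 and 24. Over all genes, 319 slopes were positive and 282 negative with Adipoq, and 313 and 316 with Myl7. The fit without a covariate had 249 and 251.

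Per doubling of Cdkn1a in C26_REVERBa hearts, Lcn2 rose by 1.04 ± 0.17 on the log2 scale, Mt2 by 0.72 ± 0.13 and Sema5a by 0.50 ± 0.08 (edgeR adjusted p = 0.0065, 0.00956 and 0.0056). Gcnt1 rose by 0.40 ± 0.07 and Phyhd1 by 0.29 ± 0.05 (edgeR adjusted p = 0.0115 and 0.00951). The slopes of Aplnr and Mdga1 were -0.69 ± 0.09 and -0.56 ± 0.11 (edgeR adjusted p = 0.00355 and 0.0141). Those of Lingo3, Lrrc15 and Mylk4 were -0.47, -0.37 and -0.35 (edgeR adjusted p = 0.00549, 0.037 and 0.0415). Rnf39 and Cebpb had slopes of 0.00 and -0.16 (edgeR adjusted p = 0.986 and 0.504). Trim7, Oasl2, Tlr4 and Irf7 just missed the threshold, with slopes of -0.40, -0.27, 0.25 and -0.25 (edgeR adjusted p = 0.053, 0.0519, 0.0581 and 0.0686).

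**Figure D4:**
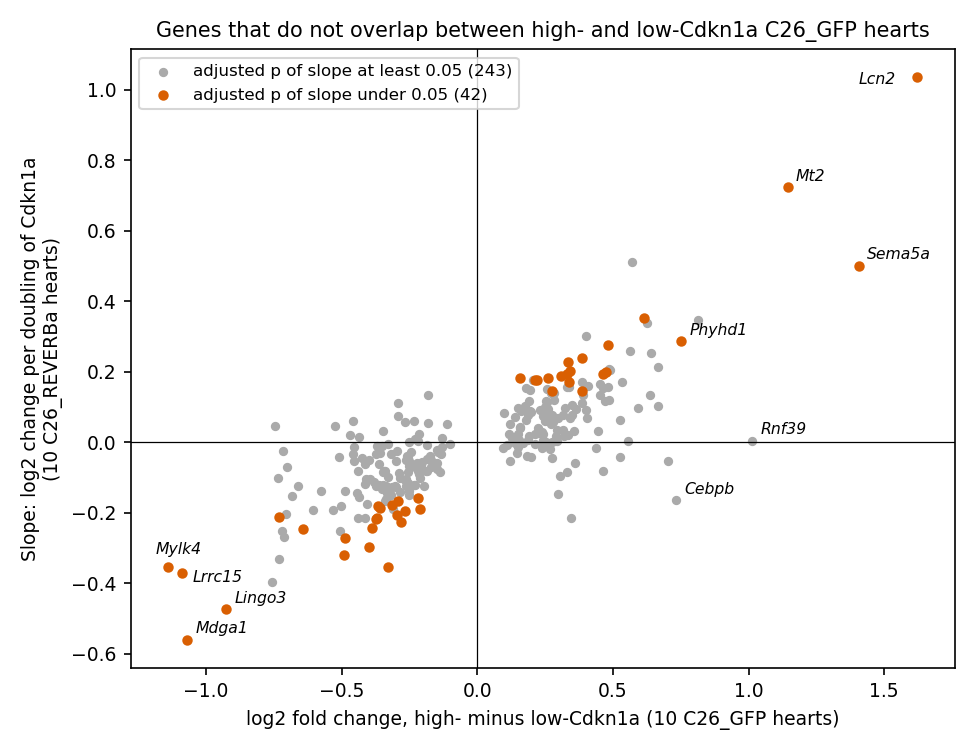
The 285 genes without overlap between high- and low-Cdkn1a C26_GFP hearts: log2 fold change between those hearts (x axis) against the log2 change per doubling of Cdkn1a in the 10 C26_REVERBa hearts (y axis). Orange points are the 42 genes whose slope passed an edgeR adjusted p of 0.05, 20 positive and 22 negative, and Rnf39 and Cebpb lie near or below 0 on the y axis.

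The list counts that follow stand against 1.99% of all genes with a positive and 2.01% with a negative slope. By list, 6 of 23 glucocorticoid targets had a positive slope (Lcn2, Mt2, Mt1, Fkbp5, Plin4 and Sult1a1) and 0 a negative one, and 4 of 23 acute phase genes (Lcn2, Osmr, Serpina3n and Lrg1). Autophagy genes had 6 of 27 positive, Bnip3, Ctsl, Sqstm1, Gabarap, Gabarapl1 and Map1lc3b, which build autophagosomes, mark mitochondria or digest cargo. Fatty acid oxidation and PPAR targets had 6 of 35 positive. Ubiquitin ligase and FOXO atrophy genes had 4 of 21 positive, Eif4ebp1, Bnip3, Gabarapl1 and Map1lc3b. Calcium handling and channel genes had 5 of 25 with a negative slope, Casq2, Hcn2, Hcn4, Kcnh2 and Cacnb2. The apelin and angiogenesis list had 3 of 21 negative, Aplnr, Apln and Esm1, which are known from vessel cells. Of 24 p53 targets, Sesn1 had a positive and Plk2 a negative slope, and none of 18 growth arrest genes passed. Those counts, and the 1 of 21 of the interferon list, are near the share of all genes. The interferon gene was Ifit3, with a slope of -0.31 (edgeR adjusted p = 0.012). Without the 2 hearts farthest from the median Cdkn1a, 3 glucocorticoid targets, 1 acute phase gene and 0 autophagy, fatty acid oxidation or calcium handling genes passed in the same direction. In the 6 hearts of the upper cluster the counts were 1, 1, 0, 0 and 0. These 2 settings called 24 and 86 genes of the whole table, so the shares of all genes above do not apply to them. None of the 86 had a negative slope, so the 0 of the calcium handling genes was fixed.

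Because the C26_REVERBa hearts were clustered, correlations with Cdkn1a were computed within the 6 hearts of the upper cluster, for the 4 largest rises and 4 largest falls of the named genes. Aplnr had a Pearson r of -0.957 (exact permutation p = 0.00833, adjusted over 8 genes 0.0667) and a Spearman rho of -0.943 (exact permutation p = 0.0167, adjusted 0.133). Without the 2 hearts farthest from the median Cdkn1a, its r was -0.674. Sema5a had an r of 0.691, Lcn2 of 0.499 and Mt2 of -0.00416 (two-sided exact permutation p = 0.119, 0.293 and 0.992). None of the 8 genes passed after adjustment, and 6 hearts allow no exact p of Spearman's rho below 0.00278.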

How the data were processed

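RNA of 29 hearts, 1 mouse each, was sequenced from total RNA with a stranded kit and no poly(A) selection, per the labels' protocols. The authors deposited raw counts for 20411 RefSeq genes. Per the submitters' processing notes, the mm10 build, STAR 2.4.2a and DESeq2 1.24.0 were used, in roles not stated there. How reads were counted, on which strand and for near-identical genes, has no statement in the sources used here, so Mt1, Mt2 and overlapping genes are uncertain. One per-sample column that matched no sample was not used. Totals ran from 3207497 to 16853646 counts, and genes near 1 CPM rest on few counts in the smallest libraries. All 406 pairs of libraries differed beyond sampling noise (chi-square over its degrees of freedom at least 2.73).

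The hearts, the 24 pathway and 16 marker lists, the named genes and the tests were chosen with earlier results of these data known. In R 4.3.3 with edgeR 4.0.16 (limma 3.58.1), filterByExpr removed genes with low counts (at least 10 in enough libraries and 15 in total were required). The C26_GFP hearts were ranked on Cdkn1a CPM of the column total and described as 5 against 5 without a test. Both tests in REV-ERBα mice used quasi-likelihood fits without covariates at an adjusted p under 0.05, each on the libraries of its own comparison. Standard errors are the log2 value divided by the square root of F. Levels use TMM factors from all 29 libraries. This was chosen after a first look with factors from the 10 hearts only, which gave 279 non-overlapping genes, 139 higher and 140 lower. Correlations had been planned over all 10 C26_REVERBa hearts with 100000 resamples, and were restricted to 6 after the clusters and the slope calls were seen, using log2(CPM + 1). The pooled correlations are not given.

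Named genes were the 10 largest differences in each direction without overlap and with a mean of at least 5 CPM, excluding clone names, up to 3 such members per list, and the 5 highest and 5 lowest in Spearman rho with Cdkn1a. Other list members and Apln are named after their values were seen. One gene is not reported here. Promoters came from RefSeq (GRCm38.p6), searched for 2 motifs. Procedures were tested on simulated data. Alternatives were other scaling, filters, rankings and set sizes, DESeq2 1.42.0, robust fits, covariates and leaving out libraries, and 5 lists were followed through them, picked after their counts were known.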

Additional observations from a re-analysis of the deposited data

Results flagged for a closer look

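Of 180 sets of values checked, 8 held a heart whose gap to its neighbour was large for the range of its set, which is 4.44% where chance gives about 5%. C26_REVERBa replicate 9 had the highest Hspb1 of its group, 359.4 CPM against 243.2 in the next heart, and the highest Hnrnpu, 412.3 against 352.3 CPM. That heart also had the highest Cdkn1a of C26_REVERBa, 114.5 CPM, and Myl7 at 43.2 CPM. C26_GFP replicate 9, a low-Cdkn1a heart, had the highest Rimkla of its set, 12.4 against 8.42 CPM. Among PBS_GFP hearts, replicate 4 was lowest for Irf7 (9.004 against 11.35 CPM) and Rimkla (5.81 against 9.42 CPM), replicate 1 highest for Atg12 (73.3 against 69.8 CPM) and replicate 2 lowest for Lrrc4b (58.7 against 76.7 CPM). PBS_REVERBa replicate 3 was lowest for Cisd2, 115.7 against 137.7 CPM.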

How the results depend on the processing

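Over the alternatives, 750 log2 differences of the 35 named genes stayed within the spread between hearts and 20 moved beyond it. Most of these genes were picked for sets that do not overlap, so their direction could not turn when hearts were left out and says nothing of stability. The number of non-overlapping genes was 289 with column totals alone (114 higher, 175 lower), 277 with RLE, 294 with upper quartile (127 higher, 167 lower) and 279 with factors from the 10 hearts. It grows by construction with fewer hearts, to 1197 for 4 against 4, 3126 for 3 against 3, 1316 without the 3 libraries above 10000000 counts, 966 without the 3 with atrial traces, and 356 to 715 without 1 replicate (715, 641, 553 and 553 without C26_GFP replicates 1, 8, 4 and 5). Of the 285 genes, 29 passed the tumour test in REV-ERBα mice in the same direction, and of the 1197 with 4 against 4, 150 did. Of all genes tested, 3.51% passed as higher and 2.59% as lower.

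The tumour test called 763 genes, 1414 at an adjusted p under 0.1, 1082 with DESeq2, 679 without a filter, 537 without libraries with atrial traces, and 323 to 1080 without 1 replicate (323, 342, 455 and 483 without PBS_REVERBa replicates 5, 2, 4 and 1, and 508 without C26_REVERBa replicate 5). Same-numbered hearts did not deviate together (correlations -0.206 to -0.00902). These values cannot exclude that the numbers pair animals, and a fit with the replicate block called 363.

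The slope test called 500 genes, 864 with DESeq2, 1084 at an adjusted p under 0.1, 210 on the rank of Cdkn1a, 24 without the 2 farthest hearts, 86 in the 6 hearts of the upper cluster, and 168 to 619 without 1 replicate. Within the 6 hearts, the correlation of Mt2 changed sign, to 0.0023 with RLE and 0.977 without the 2 farthest hearts. The cause of these changes was not tested. The removal of libraries with atrial traces, the 6-heart fit, the covariates and the factors from the 10 hearts were chosen after seeing the data. Genes under about 1 CPM are limited by depth.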

Other observations

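Clock genes were spread widely among the 10 C26_GFP hearts. The clock output factor Dbp had 60.4 to 133.6 CPM in high-Cdkn1a and 105.6 to 315 CPM in low-Cdkn1a hearts (log2 difference -0.97 ± 0.31), and 9 of 13 PER, CRY and D-box clock genes lay below 0, with a median of -0.27. The clock activator Arntl, too low to pass the filter in these hearts, had 2.21 to 7.64 and 0.322 to 3.90 CPM. No clock gene described separated the sets, near the 2.42% of all genes. In C26_REVERBa hearts, Arntl and Clock had positive slopes on Cdkn1a of 0.83 and 0.22 (edgeR adjusted p = 0.032 and 0.039), and Dbp a slope of -0.45 (edgeR adjusted p = 0.028). The hour of collection of each heart is not known here, and its part in these values was not tested.

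Immediate early genes, which respond within minutes to stimulation or handling, had 16 of 18 above 0 with a median of 0.13, and the collagen and matrix genes 15 of 25 with a median of 0.06. Neither list held a gene without overlap, near the 2.42% of all genes. The insulin, IGF and mTOR list had 1 of 24 without overlap (Igfbp3) and the heat shock list 1 of 19 (Hspb1), both near the 2.42% of all genes.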
